A study of Mus musculus with 13 samples.

Results

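The genes described here build the blood-testis barrier and the other junctions of the seminiferous epithelium, and comprise 41 genes of the 25965 in the deposited table. They were picked by name, with earlier results of these data known. They are genes of tight, adherens and gap junctions, of the ectoplasmic specialization and of integrin adhesion. Of these, 38 stand in the table under the same symbol, and Nectin2, Nectin3 and Afdn stand under the older symbols Pvrl2, Pvrl3 and Mllt4. RNA of whole testes, freed of the tunica, was sequenced in 13 libraries from mice aged 15 weeks. By their labels 6 libraries came from Wfdc15a knockouts (KO), 4 from heterozygotes (Het) and 3 from wild-type mice (WT), and the design text pools Het and WT as the control (n = 7) to study the gene's function in spermatogenesis. Each title holds a further digit that the sources used here do not explain. This title number is 1 for KO replicates 1 to 3 and Het replicate 1, and 2 for KO replicates 4 to 6, Het replicates 2 to 4 and all WT replicates. The sources used here do not give the kind of Wfdc15a allele, the strain or the litters.

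Sertoli cells, the somatic cells that surround developing germ cells, seal the seminiferous epithelium with a belt of tight junctions near its base, known as the blood-testis barrier. Claudins, occludin and JAM proteins close the space between neighbouring cells, and ZO scaffold proteins tie them to actin. The same cells hold spermatids with an actin-rich anchoring junction that is found in the testis, the ectoplasmic specialization, which is built from nectins, cadherin and catenins, integrins and actin-binding proteins. Gap junctions of connexins pass small molecules between Sertoli cells and germ cells.

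Levels are given in RPM (reads scaled to 1 M mapped reads per library), taken back from the deposited log2 values. Depth was 4.51 to 11.1 M reads per library (median 7.26 M), so that 1 read was worth 0.0899 to 0.222 RPM. The targeted gene, Wfdc15a, stood at 28.1 RPM (19.4 to 33.4) in KO libraries of number 1 and 61.2 RPM (48.1 to 81.3) in those of number 2, against 53.5 to 85.8 RPM in the controls (KO against control log2 fold change -0.66, SE 0.223, limma adjusted p = 0.0348). The KO libraries of number 2 thus overlapped the control range, and the 6 samples are called the libraries labelled KO. Marker genes of Sertoli cells were higher in every library labelled KO (mean log2 level 0.53 to 0.92 above the control mean, against -0.25 to 0.29 in the controls), and so were those of Leydig cells (0.76 to 1.55, against -0.37 to 0.25), while those of elongating spermatids were lower (-1.27 to -0.69, against -0.17 to 0.25). In bulk RNA of whole testis, more cells of a type and more RNA per cell cannot be told apart, nor can the shares of cell types and the levels inside them.

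Promoters, read from RefSeq on GRCm38.p6, are shown for the genes that carry the main contrasts. They are those of Cldn11 and Cldn3, claudins whose counts moved in opposite directions (Cldn3 with a limit given below), and that of Ezr, the member with the largest rise. Each is the stretch of 250 bases before the gene's start, written 5′ to 3′ along the gene. Capitals mark the GC box, GGGCGG or its reverse complement. The window of Cldn11 is chr3:31149670-31149919 on the plus strand, that of Cldn3 chr5:134985964-134986213 on the plus strand, and that of Ezr chr17:6782781-6783030 on the minus strand.
Cldn11: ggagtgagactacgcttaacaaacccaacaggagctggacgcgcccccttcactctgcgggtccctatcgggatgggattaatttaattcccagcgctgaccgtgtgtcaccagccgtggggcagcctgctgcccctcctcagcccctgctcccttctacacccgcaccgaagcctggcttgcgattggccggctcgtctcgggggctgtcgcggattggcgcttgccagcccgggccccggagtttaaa
Cldn3: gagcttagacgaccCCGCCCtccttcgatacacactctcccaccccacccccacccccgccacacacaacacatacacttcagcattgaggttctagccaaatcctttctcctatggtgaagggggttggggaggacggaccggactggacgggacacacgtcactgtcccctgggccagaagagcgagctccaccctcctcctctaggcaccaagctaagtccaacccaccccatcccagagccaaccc
Ezr: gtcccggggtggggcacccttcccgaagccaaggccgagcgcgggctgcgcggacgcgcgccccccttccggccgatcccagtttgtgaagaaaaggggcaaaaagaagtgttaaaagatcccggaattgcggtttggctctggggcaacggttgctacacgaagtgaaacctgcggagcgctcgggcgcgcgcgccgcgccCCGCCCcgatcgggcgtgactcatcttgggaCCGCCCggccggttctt
The Cldn11 window holds 0 GC boxes, that of Cldn3 holds 1 and that of Ezr holds 2. Of the 30 members with a promoter in the table used, 24 hold a GC box on either strand (80.0%), against 35.4% of the 27025 genes with one. The androgen receptor motif AGAACA is in 4 of them (13.3%, against 18.2% of all genes), the TEAD motif GGAATG in 4 (13.3%, against 14.4%) and a CArG box, the motif of serum response factor, in 2 (6.67%, against 1.62%). The genes set beside the members were not limited to genes expressed in these libraries, so the shares show no trait of junction genes. The letters are a description of the windows and were not tied to the measured levels.

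In the libraries labelled KO, 16 of the 39 junction genes that could be tested were higher than in the controls, where 18.4% of all genes were, 1 was lower, where 6.18% were, and 22 did not pass the test. The rises took in the claudins Cldn5, Cldn11 and Cldn12, the JAM genes F11r and Jam2, connexin 43 (Gja1), the catenins Ctnna1 and Ctnnd1, Nectin2, the actin linkers Vcl, Zyx, Ezr and Msn, and Itgb1, Ilk and Src. The largest were in Ezr (3.14-fold) and Jam2 (2.95-fold), and the fall was in Cldn3 (2.11-fold lower), all folds being of RPM + 1. The test was limma on log2(RPM + 1), with p-values adjusted by Benjamini-Hochberg over the 16235 genes whose mean reached 1 RPM, and a threshold of 0.05. Cldn1 (at most 1.15 RPM in the libraries labelled KO and at most 1.61 RPM in the controls) and Gjb1 (0 reads in every library) were under that minimum. A count of 0 allows up to 0.27 to 0.665 RPM, by library.

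Much of the transcriptome moved in the same comparison. Over all genes tested 24.6% were called and the median log2 fold change was 0.16, against 43.6% called and a median of 0.42 over the 39 junction genes. These members were chosen with earlier results of these data known, so their higher share is not a test of junction genes as a set. Of 133 other tested junction genes 22.6% were called. The fold change was above 0 for 33 of the 39 members, in a comparison whose median over all genes was itself above 0. The share of all genes above 0 was not counted. Every library labelled KO lay above every control for 4 members (Ezr, Jam2, Gja1 and Itgb1) and below every control for Cldn3, where 5.06% and 2.89% of all genes did so. With libraries rescaled by the trimmed mean of M-values (TMM), the median of all genes moved to 0.018 and the split of all genes called to 1672 higher and 1751 lower, in place of 2994 and 1003 with the deposited scaling. The junction genes then stood at 13 higher and 2 lower, with a median of 0.26.

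**Figure D1:**
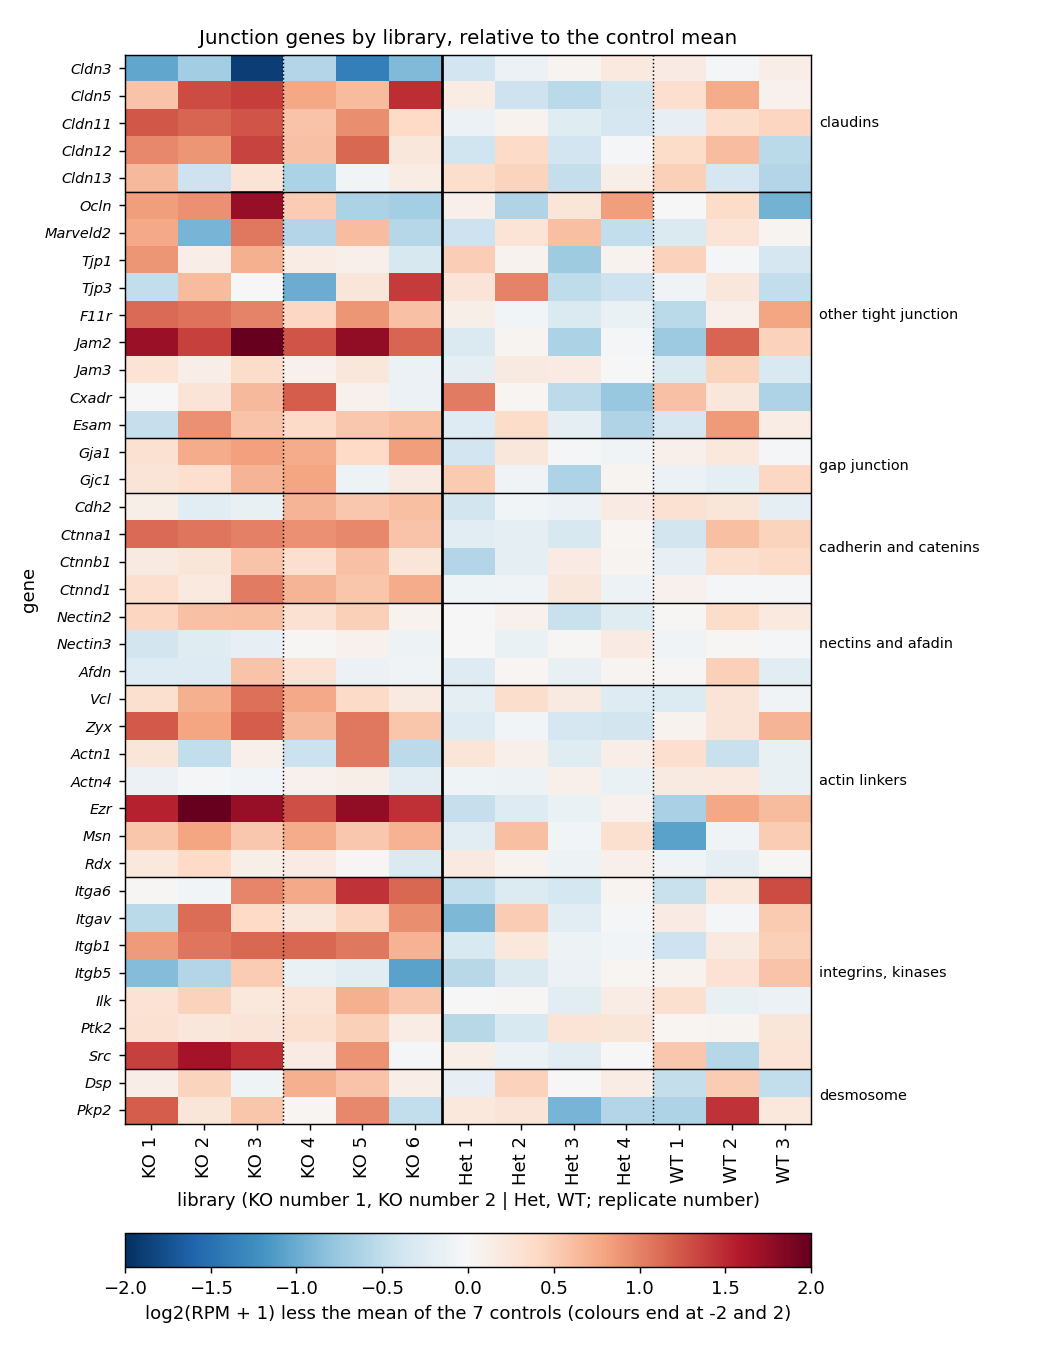
Level of the 39 tested junction genes (rows, by role) in each of the 13 libraries (columns, with libraries labelled KO left of Het and WT), as log2(RPM + 1) less the control mean. Red is higher and blue lower, and Ezr, Jam2, Itgb1 and Gja1 are red across the 6 libraries labelled KO while Cldn3 is blue.

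Cldn11 is the main claudin of Sertoli cell tight junctions, and male mice without it are sterile. It was also the most abundant member per length of exon, at 69.6 ± 16.6 RPM per kb in the libraries labelled KO and 36.2 ± 7.77 RPM per kb in the controls (SD, n = 6 and 7). Its level was 87.9, 138 and 160.0 RPM (lowest, median and highest) in the libraries labelled KO, against 52.6, 61.1 and 90.1 RPM in the controls. Only KO replicate 6 (87.9 RPM) fell inside the control range, under WT replicate 3. The log2 fold change was 0.92 (SE 0.152, limma adjusted p = 0.000192).

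Cldn3, at chr5:134986214-134987476 of mm10, codes for a claudin that is found in newly formed Sertoli cell junctions and needs androgen signalling in mice. It was the only member that passed the test as lower with the deposited scaling. The libraries labelled KO had 4.25, 8.97 and 11.97 RPM (lowest, median and highest), against 13.9, 19.1 and 21.2 RPM in the controls, and the groups did not overlap. It fell by 1.08 on the log2 scale (SE 0.200, adjusted p = 0.000557). The end of Cldn3 overlaps Wbscr25 on the opposite strand (chr5:134987433-135001350), which was at 140.3 ± 31.1 RPM in the libraries labelled KO and 286.7 ± 31.6 RPM in the controls (SD). Cldn3 amounted to 6.21 ± 2.07% of the Wbscr25 level in the libraries labelled KO and 6.52 ± 1.06% in the controls. The sources used here do not give the strand used in counting, so reads of these neighbours cannot be told apart where they overlap. Of the 41 members 15 overlap another listed gene, on either strand. For Ctnna1, Zyx and Ezr that neighbour was low (Lrrtm2, Epha1 and Sytl3, at means of 0.0574, 1.24 and 1.34 RPM in the libraries labelled KO and 0.0672, 0.343 and 0.940 RPM in the controls). For Ctnnb1, Afdn and Tjp3 a neighbour stood higher than the member itself (Ulk4, Tcte2 and Apba3). Ulk4 averaged 374 RPM in the libraries labelled KO and 384 RPM in the controls. Tcte2 was at 228 and 259 RPM and Apba3 at 32.5 and 28.2 RPM, in the same order.

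Cldn5 codes for the claudin best known from the endothelium of the blood-brain barrier. It was at 10.6, 15.4 and 20.8 RPM (lowest, median and highest) in the libraries labelled KO, against 4.41, 7.28 and 12.1 RPM in the controls. KO replicates 1 and 5 lay under WT replicate 2, and the other KO libraries above every control (log2 1.02, SE 0.232, adjusted p = 0.00294). Of 12 endothelial marker genes 3 rose and 0 fell, where 18.4% of all genes were higher and 6.18% lower. These markers had a median log2 fold change of 0.13, and their summed level was 64.5 to 91.3 RPM in the libraries labelled KO and 47.6 to 86.2 RPM in the controls. Their part in the Cldn5 result was not tested.

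Cldn12, a widely expressed claudin, ran from 8.15 to 18.8 RPM in the libraries labelled KO and from 4.34 to 11.0 RPM in the controls, so that the groups overlapped (log2 0.86, SE 0.232, adjusted p = 0.0102). The call was lost under quantile normalization (adjusted p = 0.0781) and with libraries of title number 2 alone (0.229). Cldn13, a claudin of rodents, averaged 3.83 ± 1.55 RPM in the libraries labelled KO and 3.84 ± 1.45 RPM in the controls (log2 -0.0046, adjusted p = 0.992). Per kb of exon Cldn11 led the claudins in each group. Behind it came Cldn5 (10.9 ± 3.21 RPM per kb) and Cldn3 (6.83 ± 2.27) in the libraries labelled KO, whose SDs met, whereas in the controls Cldn3 (14.7 ± 2.04) stood clear of Cldn5 (5.07 ± 1.93).

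**Figure D2:**
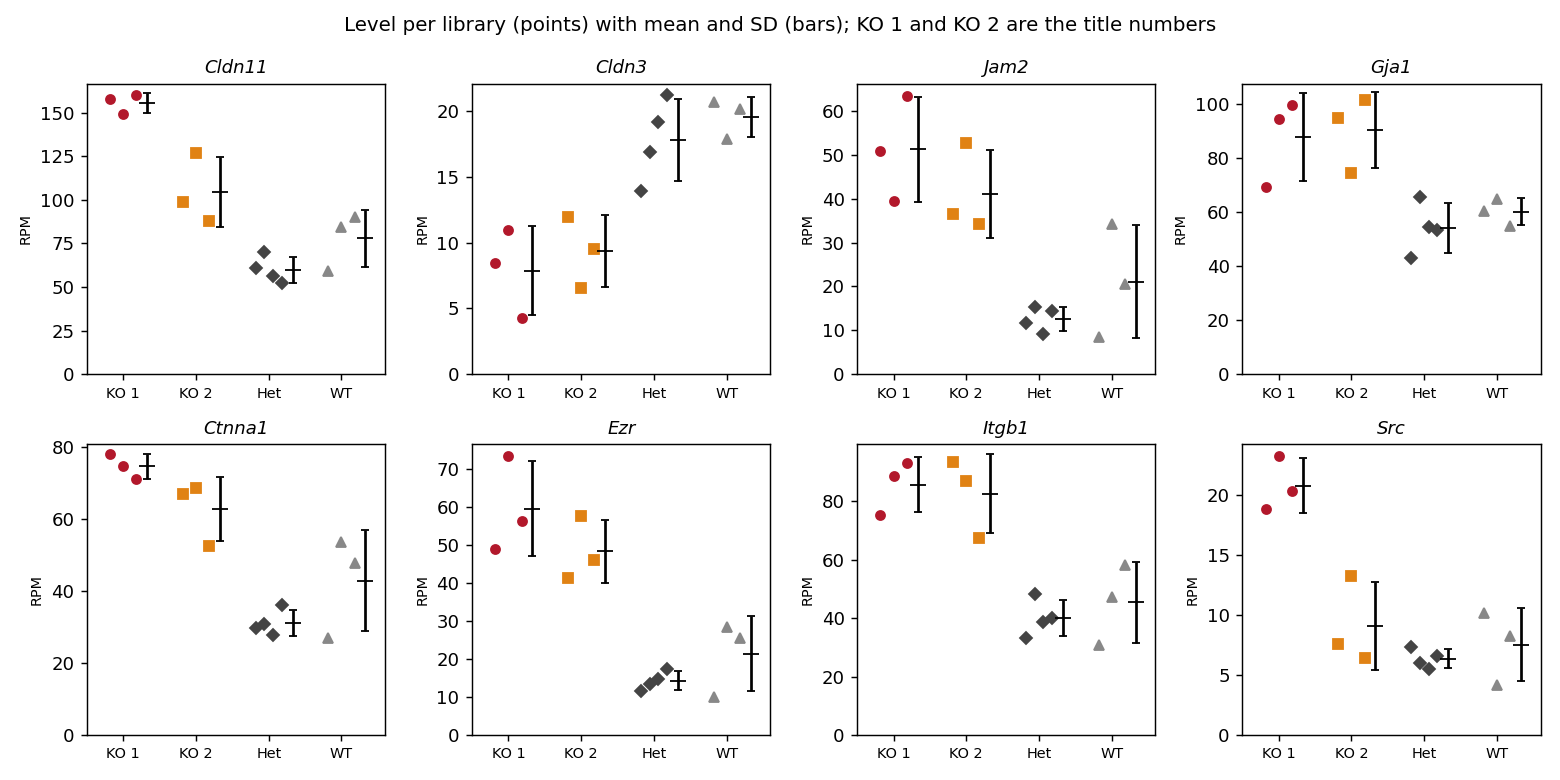
RPM of 8 junction genes per library (points) with mean and SD (bars), for KO libraries of title numbers 1 and 2, Het and WT, on axes that start at 0. Cldn3 is lower in each KO library than in any control, Ezr, Jam2, Gja1 and Itgb1 are higher, and Src is high in the KO libraries of number 1, at 18.8 to 23.2 RPM.

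Among the other tight junction genes Jam2 and F11r rose and the other 7 did not pass the test. Jam2 codes for JAM-B, an adhesion protein of Sertoli cells that binds JAM-C of spermatids. It had 34.2, 45.1 and 63.5 RPM (lowest, median and highest) in the libraries labelled KO, against 8.50, 14.3 and 34.2 RPM in the controls. The groups touched without overlapping, as KO replicate 6 and WT replicate 2 differed only in the third decimal. The log2 fold change was 1.56 (SE 0.243, adjusted p = 0.000116). F11r, which codes for JAM-A of tight junctions, had 43.7, 62.9 and 71.7 RPM in the libraries labelled KO, against 21.9, 31.2 and 56.8 RPM in the controls (log2 0.85, SE 0.173, adjusted p = 0.00126). The control range of F11r was set by WT replicate 3 (56.8 RPM), and KO replicates 4 and 6 lay under it.

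Jam3, which codes for JAM-C, averaged 47.9 ± 5.52 RPM in the libraries labelled KO and 43.2 ± 8.74 RPM in the controls (log2 0.16, adjusted p = 0.392). The log2 ratio of Jam2 to Jam3 within a library ran from -0.31 to 0.20 in the libraries labelled KO and from -2.27 to -0.71 in the controls. Ocln, occludin, spread widely among the libraries labelled KO, at 14.4, 15.2 and 28.0 RPM in those of title number 1 and 4.36, 4.55 and 11.3 RPM in those of number 2, against 3.50 to 14.3 RPM in the controls (log2 0.45, SE 0.350, adjusted p = 0.373). Tjp1, the ZO-1 scaffold, was at 26.3 ± 8.58 RPM in the libraries labelled KO and 21.4 ± 6.21 RPM in the controls (log2 0.28, adjusted p = 0.355). The remaining tight junction genes were low. They were Marveld2 (tricellulin, of the corners where cells meet), Tjp3 (ZO-3), Cxadr (the coxsackievirus and adenovirus receptor) and Esam (an endothelial adhesion molecule). Marveld2 ran from 0.497 to 4.91 RPM in the libraries labelled KO and from 1.01 to 3.30 RPM in the controls, and Tjp3 from 0 to 4.25 RPM and from 0.413 to 2.97 RPM in the same order. Cxadr ran from 1.61 to 5.54 RPM in the libraries labelled KO and from 0.674 to 4.80 RPM in the controls, and Esam from 1.40 to 5.22 RPM and from 1.18 to 4.96 RPM in the same order. The groups overlapped for each of these 4 genes, whose log2 fold changes of 0.058 to 0.43 did not pass the test.

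Gja1, connexin 43, is the main gap junction protein of Sertoli cells. The libraries labelled KO had 69.4, 94.6 and 102 RPM (lowest, median and highest), against 43.0, 54.9 and 65.7 RPM in the controls, without overlap (log2 0.64, SE 0.118, adjusted p = 0.000537). Gjc1, connexin 45, was at 8.51 ± 2.17 RPM in the libraries labelled KO and 6.48 ± 1.98 RPM in the controls (log2 0.36, adjusted p = 0.246). Gjb1, connexin 32, had no reads in any library.

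Of cadherin and its catenins, Ctnna1 and Ctnnd1 rose. Ctnna1, α-catenin, which links the cadherin complex to actin, was at 52.5, 69.8 and 78.05 RPM (lowest, median and highest) in the libraries labelled KO, against 26.9, 30.8 and 53.6 RPM in the controls (log2 0.94, SE 0.154, adjusted p = 0.000175). The groups overlapped only through KO replicate 6 and WT replicate 2. Ctnnd1, p120 catenin, which holds cadherins at the membrane, was at 67.9, 91.4 and 122 RPM in the libraries labelled KO, against 55.3, 57.4 and 69.4 RPM in the controls, where only KO replicate 2 lay under Het replicate 3 (log2 0.59, SE 0.119, adjusted p = 0.00113). Ctnnb1, β-catenin, averaged 151 ± 19.2 RPM in the libraries labelled KO and 119.5 ± 26.6 RPM in the controls, just short of the threshold (log2 0.36, SE 0.131, adjusted p = 0.0511). It passed with title number as a covariate (log2 0.46, adjusted p = 0.0156) and did not with TMM scaling (log2 0.20, adjusted p = 0.277) or with libraries of title number 2 alone (log2 0.29, adjusted p = 0.198).

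Cdh2, N-cadherin, the cadherin of Sertoli cell and germ cell contacts, did not pass the test (log2 0.27, SE 0.156, adjusted p = 0.225). Its KO libraries fell into separate ranges by title number. Those of number 1 had 41.9, 43.8 and 53.1 RPM and those of number 2 had 71.5, 74.7 and 78.9 RPM, against 37.6 to 60.5 RPM in the controls. The KO libraries of number 2 alone were higher than the controls (log2 0.61, adjusted p = 0.00861), and those of number 1 had a log2 fold change of -0.080. The difference between the numbers did not pass the test over all genes (number 1 against number 2, log2 -0.69, SE 0.174, limma adjusted p = 0.0974).

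Nectins hold the ectoplasmic specialization together across the gap between cells, Nectin2 on the Sertoli cell side and Nectin3 on the spermatid side. Nectin2 was at 78.04, 102 and 113 RPM (lowest, median and highest) in the libraries labelled KO, against 54.1, 75.2 and 95.8 RPM in the controls (log2 0.41, SE 0.123, adjusted p = 0.0181). The ranges overlapped, and the call was lost with TMM scaling (log2 0.26, adjusted p = 0.135). Nectin2 also overlaps the listed gene Gm20512, to which it stood at 178 ± 12.4% in the libraries labelled KO and 186 ± 13.3% in the controls. Nectin3 was at 170.1, 200.2 and 232 RPM in the libraries labelled KO, against 200.2, 221 and 247 RPM in the controls (log2 -0.13, SE 0.082, adjusted p = 0.271). With TMM scaling Nectin3 was called lower (log2 -0.28, adjusted p = 0.0170). The log2 ratio of Nectin2 to Nectin3 was -0.78 to -0.73 in the KO libraries of number 1 and -1.38 to -1.16 in those of number 2, against -2.02 to -1.22 in the controls. Afdn, the afadin scaffold that ties nectins to actin, averaged 25.6 ± 6.67 RPM in the libraries labelled KO and 24.9 ± 4.77 RPM in the controls (log2 0.027, adjusted p = 0.925).

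**Figure D3:**
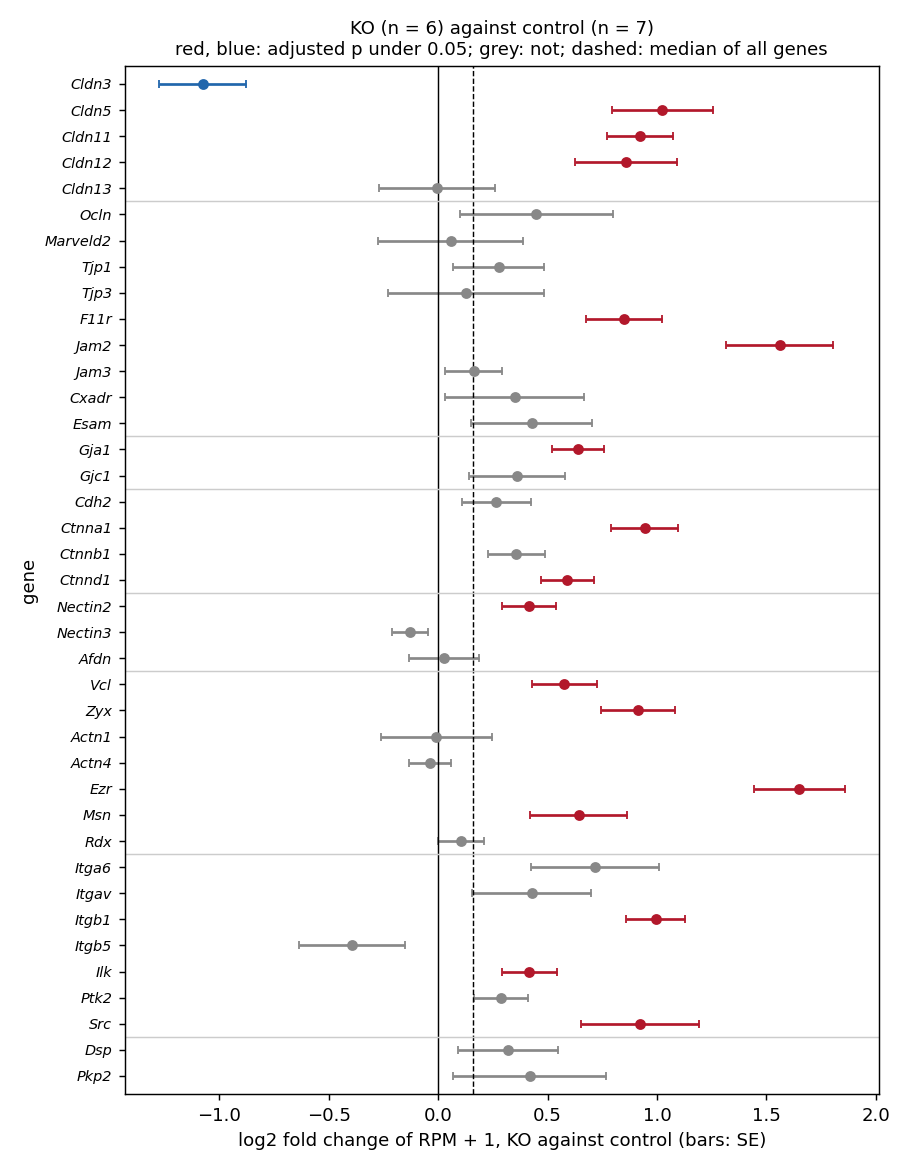
Log2 fold change of RPM + 1 for the libraries labelled KO against the controls for each tested junction gene (points, with SE as bars), grouped by role from claudins at the top to desmosome genes at the bottom. The 16 red genes passed the test as higher and the blue one, Cldn3, as lower, and the dashed line at 0.16 is the median of all genes.

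The actin linkers held the member with the largest rise. Ezr codes for ezrin, which ties membrane proteins to the actin cortex and lies on chr17:6738041-6782784 of mm10. It had 41.2, 52.7 and 73.3 RPM (lowest, median and highest) in the libraries labelled KO, against 10.02, 14.7 and 28.3 RPM in the controls, a clear separation (log2 1.65, SE 0.206, adjusted p = 1.3e-05). Its relatives in the ERM family had smaller fold changes. Msn, moesin, was at 15.7, 16.7 and 18.8 RPM in the libraries labelled KO, against 4.45, 10.1 and 16.4 RPM in the controls, and barely passed the test (log2 0.64, SE 0.220, adjusted p = 0.0374). Msn was no longer called in 10 of the 13 fits without 1 library, where the adjusted p reached 0.0691. Rdx, radixin, averaged 90.3 ± 14.1 RPM in the libraries labelled KO and 83.2 ± 7.35 RPM in the controls (log2 0.11, adjusted p = 0.501). The log2 ratio of Ezr to Rdx within a library was -1.16 to -0.54 in the libraries labelled KO and -2.92 to -1.33 in the controls.

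Zyx codes for zyxin, a protein of focal adhesions and of the ectoplasmic specialization. Its level was 40.7, 53.3 and 65.7 RPM (lowest, median and highest) in the libraries labelled KO, against 21.2, 26.5 and 44.7 RPM in the controls, with KO replicates 4 and 6 under WT replicate 3 (log2 0.91, SE 0.167, adjusted p = 0.000501). Vcl, vinculin, which couples adhesion sites to actin, was at 55.7, 72.1 and 106 RPM in the libraries labelled KO, against 40.2, 46.5 and 62.3 RPM in the controls, with overlap (log2 0.58, SE 0.147, adjusted p = 0.00693). Vcl overlaps Ap3m1, and was at 157 ± 16.0% of its level in the libraries labelled KO and 155 ± 26.8% in the controls. The α-actinins Actn1 (6.57 ± 3.69 RPM in the libraries labelled KO and 6.14 ± 1.35 RPM in the controls) and Actn4 (75.8 ± 6.53 and 77.9 ± 8.53 RPM, in the same order), which bundle actin, had log2 fold changes of -0.0090 and -0.037 and did not pass the test.

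Of the integrin genes, Itgb1, the β1 subunit that pairs with α6 at the ectoplasmic specialization, rose. It had 67.5, 87.9 and 93.5 RPM (lowest, median and highest) in the libraries labelled KO, against 30.8, 40.1 and 58.4 RPM in the controls, without overlap (log2 0.99, SE 0.136, adjusted p = 3.01e-05). Itga6, its α6 partner, was at 6.96, 14.2 and 21.6 RPM in the libraries labelled KO, against 4.92, 5.84 and 19.5 RPM in the controls, and did not pass the test (log2 0.72, SE 0.293, adjusted p = 0.0786). The highest control of Itga6 was WT replicate 3, and without it the log2 fold change was 0.93 (adjusted p = 0.0111). The value for Itga6 was 0.43 with quantile normalization (adjusted p = 0.330) and 0.58 with TMM scaling (adjusted p = 0.168). The vitronectin receptor subunits Itgav (8.42 ± 3.50 RPM in the libraries labelled KO and 5.87 ± 2.08 RPM in the controls, log2 0.43) and Itgb5 (9.01 ± 4.23 and 11.6 ± 3.25 RPM in the same order, log2 -0.39) did not pass it either. The log2 ratio of Itgb1 to Itgb5 was 2.43 to 3.56 in the libraries labelled KO and 1.31 to 2.29 in the controls.

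Of the kinases that signal from these adhesions, Ilk and Src passed the test. Ilk, integrin-linked kinase, was at 33.2, 37.5 and 47.2 RPM (lowest, median and highest) in the libraries labelled KO, against 24.1, 28.8 and 35.8 RPM in the controls (log2 0.42, SE 0.125, adjusted p = 0.0193), and lost its call with TMM scaling (adjusted p = 0.145). Ilk overlaps Taf10 and Rrp8, of which Taf10 was the higher of the 3 genes, at 54.9 ± 5.07 RPM in the libraries labelled KO and 49.5 ± 6.58 RPM in the controls, and Rrp8 was at 12.9 ± 1.31 and 11.1 ± 2.38 RPM in the same order. Ptk2, focal adhesion kinase, averaged 95.2 ± 7.86 RPM in the libraries labelled KO and 79.0 ± 15.8 RPM in the controls (log2 0.29, adjusted p = 0.0942). Src, a tyrosine kinase that acts in junction turnover, was at 18.8, 20.3 and 23.2 RPM in the KO libraries of title number 1 and 6.43, 7.53 and 13.2 RPM in those of number 2, against 4.16 to 10.1 RPM in the controls. Those of number 1 lay above every control and those of number 2 within or near the control range. Src was called over all 6 (log2 0.92, SE 0.270, adjusted p = 0.0164) and not with libraries of number 2 alone (log2 0.36, adjusted p = 0.472). The desmosome genes Dsp (desmoplakin) and Pkp2 (plakophilin 2) did not pass the test (log2 0.32 and 0.42, adjusted p = 0.323 and 0.410). Dsp ran from 4.58 to 8.64 RPM in the libraries labelled KO and from 3.22 to 7.38 RPM in the controls. Pkp2 ran from 1.84 to 8.27 RPM in the libraries labelled KO and from 1.10 to 9.92 RPM in the controls, its highest value being that of WT replicate 2.

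**Figure D4:**
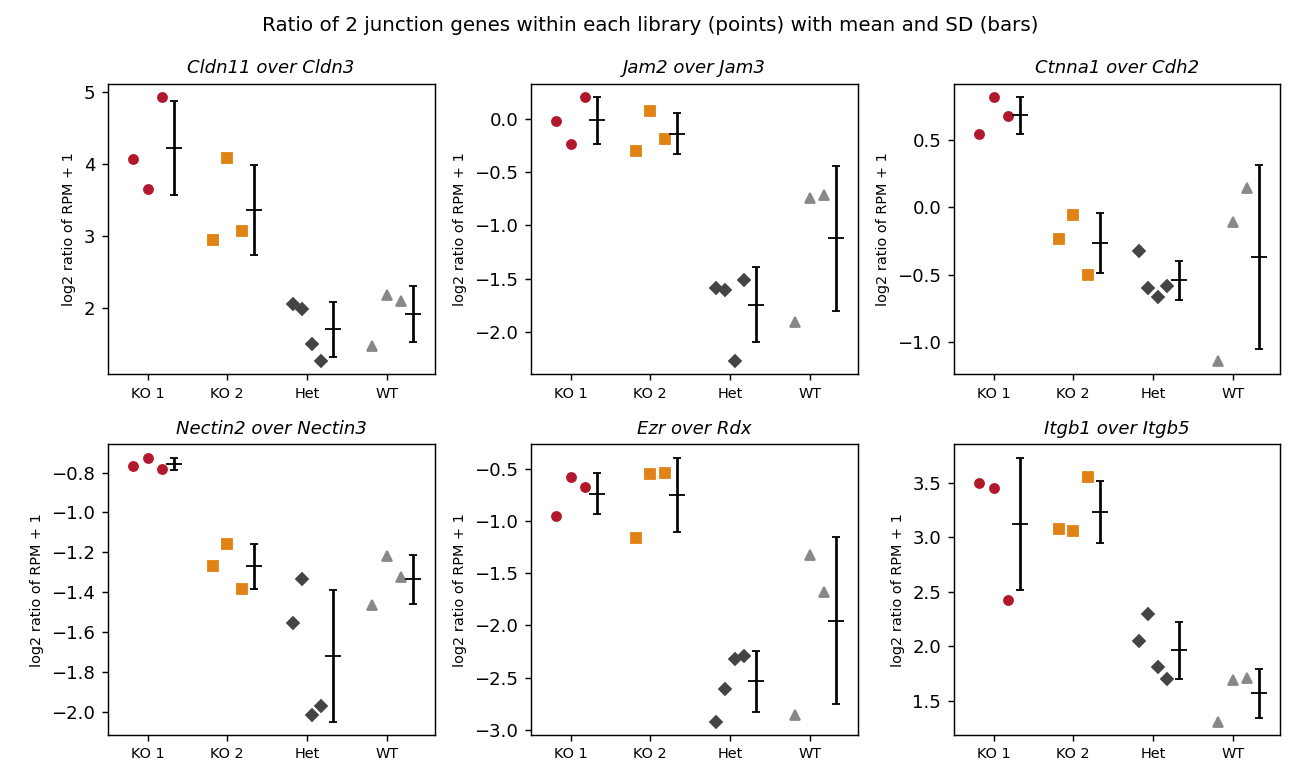
Log2 ratio of RPM + 1 of a pair of related junction genes within each library (points) with mean and SD (bars), for KO libraries of title numbers 1 and 2, Het and WT. The pairs were chosen after their values were seen and carry no test; Cldn11 to Cldn3 is 2.94 to 4.94 in the libraries labelled KO and 1.27 to 2.18 in the controls.

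The ratio of Cldn11 to Cldn3 set these barrier claudins against each other within each library. On the log2 scale it averaged 3.80 ± 0.739 in the libraries labelled KO and 1.80 ± 0.368 in the controls (SD, n = 6 and 7). No KO library reached down to the control range. Reads of Cldn3 and of its neighbour Wbscr25 cannot be told apart where they overlap. The part of Wbscr25 in this ratio was not tested. The ratio of Ctnna1 to Cdh2 was 0.55 to 0.82 in the KO libraries of number 1 and -0.50 to -0.059 in those of number 2, against -1.14 to 0.14 in the controls, so that only those of number 1 stood apart. A ratio within a library shows that a pair changed unequally and does not show which gene stayed level.

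The KO libraries of each title number were also set against the same 7 controls, which these comparisons share. Of these controls only Het replicate 1 carries title number 1, and the rest carry number 2. In the comparison for number 1, KO and title number can therefore hardly be told apart. For number 1 (n = 3), 15 members were higher and 2 lower (Cldn3 and Nectin3), where 17% of all genes were higher and 5.74% lower. For number 2 (n = 3), 13 members were higher and 1 lower (Cldn3), where 7.8% of all genes were higher and 4.64% lower. Cldn11 had a log2 fold change of 1.22 for number 1 and 0.63 for number 2, Src of 1.504 and 0.34, and Ocln of 1.17 and -0.27, in the same order. Jam2 (1.71 for number 1 and 1.41 for number 2), Ezr (1.80 and 1.51) and Itgb1 (1.02 and 0.96) passed the test for each number. Set directly against each other, KO libraries of number 1 and number 2 differed in 0 members after adjustment in limma, where 0.179% of all genes were called (0.0986% higher in number 1 and 0.0801% lower). Before adjustment 6 members were under 0.05 (Cldn11, Ocln, Tjp1, Cdh2, Nectin3 and Src), where 1999 of the 16235 genes tested were. Limma-voom on the recovered reads also called 0 members. Without KO replicate 3 the count of members higher for number 1 was 9, and that of all genes 1692 in place of 2754. Without KO replicate 5 the count of members higher for number 2 was 6, and that of all genes 505 in place of 1266.

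**Figure D5:**
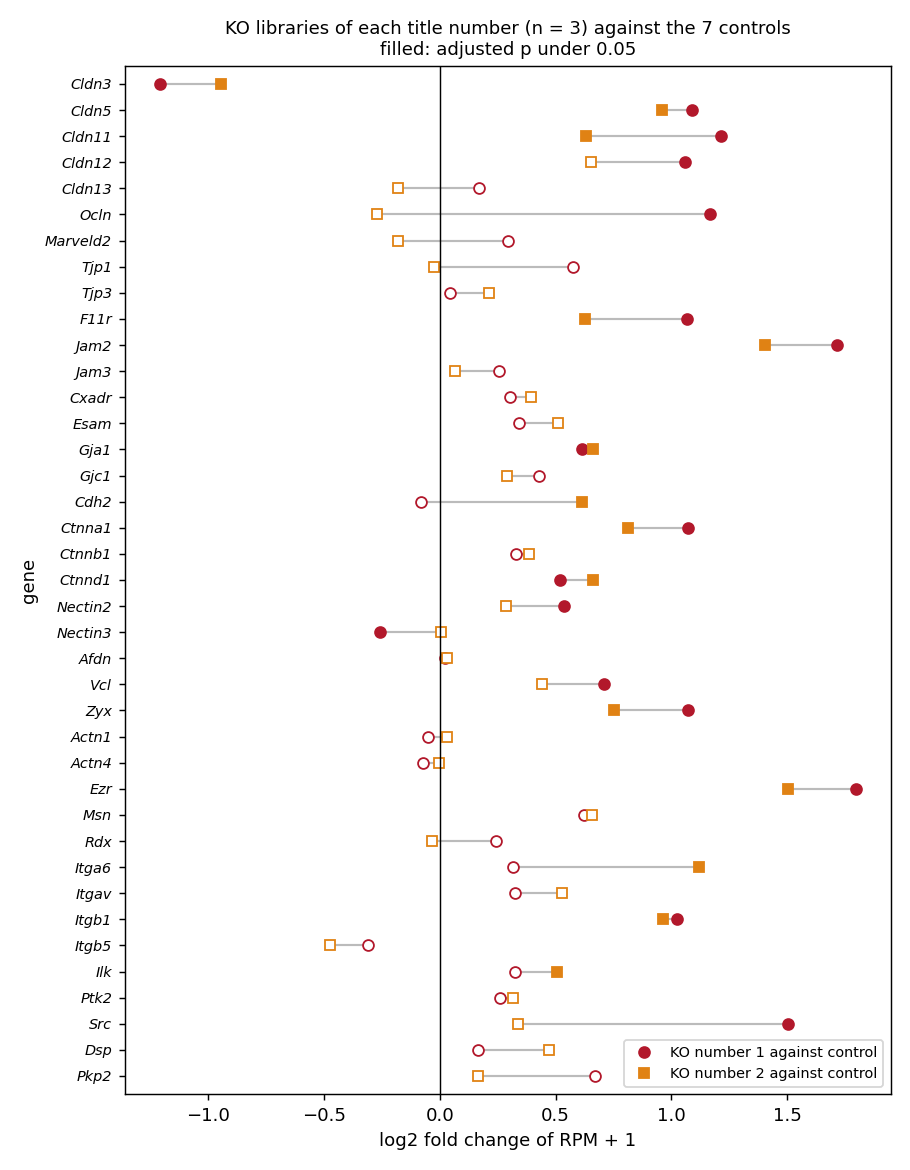
Log2 fold change of RPM + 1 of each tested junction gene for KO libraries of title number 1 (circles) and number 2 (squares), each n = 3 against the 7 controls; filled symbols passed the test. Most pairs lie on the same side of 0, and Cdh2, Ocln and Src show wide gaps between the numbers.

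Het and WT libraries were compared to see whether the pooled controls differed. In limma 0 genes passed, 957 being under 0.05 before adjustment, and limma-voom on the recovered reads called 0 as well. Of the members, Cldn5, Nectin2 and Zyx were under 0.05 before adjustment, all lower in Het (log2 -0.68, -0.35 and -0.59, adjusted p = 0.751, 0.784 and 0.680). WT replicates 2 and 3 were the 2 highest controls for Jam2, Ezr, Ctnna1, Zyx and Cldn11, and they also had the highest Sertoli marker levels of the controls (0.28 and 0.29 above the control mean on the log2 scale). Against Het alone the libraries labelled KO had 17 members higher and 1 lower (22.1% of all genes called, 16.9% higher and 5.15% lower), and against WT alone 9 higher and 1 lower (9.39% called, 6.05% higher and 3.34% lower). Without WT replicate 1 the member counts against WT were 2 higher and 0 lower. Over all genes they were then 219 higher and 235 lower, in place of 982 and 543. Without Het replicate 1 the count of members higher than Het was 11, and that of all genes 2028 in place of 2748.

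Beside the junction genes stood the markers of the cell types that carry them. Of 18 tested Sertoli genes 13 rose and 0 fell (median log2 fold change 0.69), and their summed level was 2842 to 4150 RPM in the libraries labelled KO and 1509 to 2519 RPM in the controls. Sox9 and Wt1, transcription factors of Sertoli cells, rose by 0.97 and 0.87. Cldn11, Gja1, Ctnna1, Zyx and Itgb1, had log2 fold changes of 0.64 to 0.99, Jam2 and Ezr of 1.56 and 1.65, and Cldn3 of -1.08. The part of Sertoli cell RNA in these results was not tested. Of 8 Leydig genes 7 rose and 0 fell (median 0.91), of 11 macrophage genes 8 rose and 0 fell (0.85), of 8 peritubular muscle genes 3 rose and 1 fell (0.50), and of 10 spermatogonial genes 2 rose and 0 fell (0.21). Of all genes tested 18.4% were higher and 6.18% lower. Summed Leydig levels were 5655 to 9921 RPM in the libraries labelled KO and 2351 to 4223 RPM in the controls. Summed levels overlapped for macrophage genes (933 to 1155 and 836 to 1039 RPM, in the same order), peritubular muscle genes (315 to 444 and 365 to 448 RPM) and spermatogonial genes (388 to 452 and 319 to 461 RPM). All 12 elongating spermatid genes fell (median -1.10), with a summed level of 6275 to 9779 RPM in the libraries labelled KO and 14741 to 19289 RPM in the controls. Of 9 round spermatid genes 1 fell, and 0 of 11 spermatocyte genes (3 before adjustment), 0 of 2 erythroid genes and 0 of 1 gene of rete testis and epididymis epithelium passed the test, where limma-voom on the recovered reads called 0 as well; Hba-a2, Lcn5 and Lcn8 were at 0 in every library.

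Other genes of the same junctions were taken from lists written from general knowledge, with earlier results of these data known. Of 133 tested genes 23 rose and 7 fell (22.6% called, close to the 24.6% of all genes), with a median log2 fold change of 0.18. By class, 6 rose and 3 fell of 32 tight junction genes, 4 rose and 2 fell of 29 adherens junction genes, 8 rose and 2 fell of 37 genes of the ectoplasmic specialization and actin, 4 rose and 0 fell of 19 integrin genes, and 1 rose and 0 fell of 8 desmosome and intermediate filament genes. None of 8 further connexins and pannexins passed in limma, where 0 were under 0.05 before adjustment and limma-voom called 0.

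Among these, Cldn23, a claudin, was at 5.31 ± 2.20 RPM in the libraries labelled KO and 0.736 ± 0.681 RPM in the controls (log2 1.87, SE 0.287, adjusted p = 9.91e-05). Amotl2 (angiomotin-like 2, log2 1.25), Cgn (cingulin, a tight junction plaque protein, 0.98) and the low gene Ildr2 (0.97) also rose. Ildr2 averaged 2.03 RPM in the libraries labelled KO and 0.421 RPM in the controls. The control means of Cldn23 and Ildr2 were under the minimum of 1 RPM, so both entered the test only through their KO levels. Vasp, which promotes actin filament growth, fell to 35.3 ± 6.24 RPM in the libraries labelled KO, against 80.4 ± 14.4 RPM in the controls (log2 -1.16, SE 0.131, adjusted p = 5.15e-06). Fscn3, the testis fascin that bundles actin, fell by 0.96. Of the genes tied to the actin and kinase members, Actr3, a subunit of the Arp2/3 complex, rose by 0.94 and Csk, the kinase that restrains Src, by 0.93. Itga5 (the fibronectin receptor subunit, 1.82), Cdh5 (the endothelial cadherin, 1.57, also an endothelial marker here), Vim (vimentin, the intermediate filament of Sertoli and other somatic cells, 1.11) and Ctnnal1 (α-catenin-like 1, 0.83) completed the 12 with the largest change. By title number, Itga5 had a log2 fold change of 2.69 for KO libraries of number 1 (adjusted p = 0.000235) and 0.95 for those of number 2 (adjusted p = 0.164), whose difference did not pass the test (adjusted p = 0.175). Of the 19 integrin genes 3 rose for number 1 and 0 for number 2, where limma had 4 under 0.05 before adjustment and limma-voom called 1.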

How the data were processed

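The 13 libraries were made from about 2 ng of total RNA by Smart-seq2 with 11 PCR cycles, per the labels' protocols. FastQC 0.11.8, Trim Galore 0.6.6 and mm10 are named in the submitters' processing notes; the sources used here do not give the aligner, the counter or its strand. The authors deposited log2 RPM for 25965 genes. These values were turned back into RPM, the lowest value of a library, worth 0.9 read, being set to 0; at least 99.96% of values per library gave whole reads (within 0.01). Depth was 4.51 to 11.1 M reads. The limit used where no read was seen is 3 reads (95% confidence, counting error alone).

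Groups came from the labels, and p-values measure the spread between these libraries. Each comparison was a two-sided limma 3.58.1 fit with a mean-variance trend in R 4.3.3, on log2(RPM + 1) of the 16235 genes whose mean reached 1 RPM, with Benjamini-Hochberg adjustment (threshold 0.05); adjusted p-values are from these fits unless an alternative is named, which has its own fit and adjustment. These fits were checked on simulated counts with as many rises as falls and a fixed spread. That check does not cover a shift of the median over all genes or differences by title number. KO of the 2 title numbers shared 1 fit with the controls, and KO, Het and WT another. A marker level is the mean log2(RPM + 1) over a list. Levels per kb use exon lengths of the GENCODE annotation. Alternatives were other pseudocounts, filters and scalings, limma-voom on the recovered reads, title number as covariate, title number 2 only, a replicate block and leaving out each library; TMM and median-of-ratios factors were computed by code written for the purpose. The junction genes and the lists were chosen with earlier results of these data known. The text names all 41 junction genes, of the other junction genes the 12 called with the largest change, Wfdc15a, and of each marker list at most the first 2 tested, plus markers at 0 and overlapping neighbours, which were chosen after values were seen. List entries without a row in the table were not analysed here.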

Additional observations from a re-analysis of the deposited data

Results flagged for a closer look

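Of 120 groups of 4 to 7 libraries with any spread (the libraries labelled KO, the controls and Het, for each junction gene), 9 held a library far from the rest (7.5%), where chance flags about 1 in 20. In the libraries labelled KO this was Actn1 in KO replicate 5 (13.5 RPM, the next at 7.29 RPM). In the controls, WT replicate 2 stood out for Pkp2 (9.92 RPM), Afdn (34.6 RPM) and the nearly silent Cldn1 (1.61 RPM). WT replicate 3 stood out for F11r (56.8 RPM, the next at 35.1 RPM) and Itga6 (19.5 RPM, the next at 8.58 RPM), and Het replicate 2 for Tjp3 (2.97 RPM). Within Het, replicate 3 stood out for Ctnnd1 (69.4 RPM) and for Cldn1 (0.138 RPM, the others at 0). No junction gene differed between the KO libraries of the title numbers after adjustment.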

How the results depend on the processing

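Of the 17 called junction genes, 10 were called under all 24 alternatives (Cldn3, Cldn5, Cldn11, Jam2, Gja1, Ctnna1, Ctnnd1, Zyx, Ezr and Itgb1), and 7 lost the call under at least 1 (Cldn12, F11r, Nectin2, Vcl, Msn, Ilk and Src), all 7 with title number 2 only. In that fit fewer libraries enter, and the log2 fold changes differed as well. They were 0.59, 0.65, 0.29, 0.41, 0.62, 0.51 and 0.36, in the order named, in place of 0.86, 0.85, 0.41, 0.58, 0.64, 0.42 and 0.92. The count of members higher in KO against control was 10 with title number 2 only and 14 to 18 without 1 library. The count lower was 2 with TMM, median-of-ratios or quantile scaling and 1 without any 1 library. Beside Cldn3 the other lower member was Nectin3 with TMM and median-of-ratios, and Itgb5 with quantile normalization (log2 -0.67, adjusted p = 0.0448). Over all genes the counts higher and lower were 1672 and 1751 with TMM, 1711 and 1716 with median-of-ratios, 1460 and 1532 with quantile normalization, and 895 and 654 with title number 2 only. For KO of title number 1 the members higher were 9 to 15 and lower 1 to 2 without 1 library, and 1 was lower with quantile normalization. For KO of number 2 the members higher were 7 with TMM, 8 with median-of-ratios, 8 with quantile normalization and 6 to 13 without 1 library (lower 0 to 1). Over all genes 534, 544 and 653 were higher with these scalings, in the same order, in place of 1266. Against WT the members higher were 3 with TMM, 3 with median-of-ratios, 4 with quantile normalization and 2 to 11 without 1 library (lower 0 to 1). Over all genes 417, 444 and 423 were higher than WT with these scalings, in the same order, in place of 982. Against Het 2 were lower with TMM and with median-of-ratios, and 11 to 17 were higher without 1 library. The cause of these changes was not tested.

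Signs turned only for uncalled genes. With title number 2 only, log2 fold changes were -0.25 for Ocln, -0.25 for Marveld2, 0.0052 for Nectin3, -0.012 for Afdn, 0.074 for Actn1 and -0.0051 for Rdx. With TMM they were -0.041 for Marveld2, -0.12 for Afdn and -0.050 for Rdx, with median-of-ratios -0.037, -0.12 and -0.046 in the same order, and with quantile normalization -0.15 for Marveld2, -0.22 for Afdn, -0.0024 for Tjp3 and -0.0079 for Jam3. Limma-voom gave -0.11 for Marveld2 and -0.0033 for Afdn, and a pseudocount of 3 RPM gave 0.0063 for Actn1. Without 1 library the ranges were -0.14 to 0.12 for Cldn13, -0.14 to 0.25 for Marveld2, -0.13 to 0.35 for Tjp3, -0.084 to 0.11 for Afdn and -0.22 to 0.093 for Actn1.

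The replicate block left 15 members higher and 1 lower, dropped the calls of Msn (adjusted p = 0.0687) and Ilk (0.123), added Ocln (log2 0.98, adjusted p = 0.0432), gave 0.40 for Itga6 (adjusted p = 0.321) and gave -0.14 for Tjp3 and 0.00075 for Cldn13. KO replicates 5 and 6 have no control of the same number, so they do not enter the KO difference of this fit. That difference rests on KO replicates 1 to 4, of which 1 to 3 carry title number 1. Only 1 of 10 same-numbered pairs of libraries had deviations correlated above 0.1 (range -0.0835 to 0.126). Such weak correlations cannot show whether the numbers pair the samples, which were left unpaired in the main fits. At 4.51 M reads or more, genes near 1 RPM rest on few reads, which limits Marveld2, Tjp3 and Cxadr.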

Other observations

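Among the 39 tested junction genes, KO replicate 3 was the highest library for 9, KO replicate 2 for 6, and KO replicates 1, 4 and 5 for 5 each. The lowest library was most often WT replicate 1 (7 genes), followed by Het replicates 1 and 3 (6 each). Over all genes tested the first principal component (31.1% of the variance) had every library labelled KO on 1 side and every control on the other. On the second (9.93%), Het replicate 1 and KO replicates 1 to 3, which share title number 1, had the lowest values.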
